A study of Mus musculus with 4 samples.

Results

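The 8 genes described here are *Gdnf* and *Nrtn*, ligands of the glial cell line-derived neurotrophic factor (GDNF) family, *Gfra1* and *Gfra2*, the co-receptors that bind those ligands, the receptor kinase gene *Ret*, the neurotrophin gene *Ntf3*, the receptor kinase gene *Ntrk2* and *Ngfr*, the gene of the low-affinity neurotrophin receptor p75. They were picked by symbol from the 32285 annotated genes of 4 droplet-based single-cell mRNA libraries of the fetal mouse penis, as genes of peripheral nerve signaling whose levels had been seen to vary between cell types and genotypes in these same libraries. Their own genotype differences are therefore given as a description, with the value of every sample, the fitted log2 fold change and its SE, and with no test. The other genes of the same pathways were tested, in lists that were also chosen with earlier results of these data known.

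All libraries were made from the genitalia of male embryos at E16.5, the stage of urethra closure, and 2 samples were collected for each genotype. Control samples (DTA-) carried 1 floxed allele of the diphtheria toxin A chain gene in the *Rosa* locus (DTA f/+) without the *Nr5a1cre* transgene, and ablated samples (DTA+) carried the same allele together with *Nr5a1cre*, so that the toxin was made in cells that had expressed *Nr5a1*. *Nr5a1* is a gene of the fetal testis and the adrenal gland as well, and the study's methods place the ablation in those organs too, so the DTA+ samples differ from the DTA- samples by more than a loss of cells in the penis. The study calls the samples biological replicates, and the labels do not say how many embryos each one holds; every p-value here measures the spread between these 4 samples only.

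GDNF binds GFRα1 and neurturin, the product of *Nrtn*, binds GFRα2. Each pair then engages the kinase RET, through which the ligands keep sympathetic, parasympathetic and sensory neurons alive and draw their axons into target organs. Neurotrophin-3, the product of *Ntf3*, signals mainly through TrkC, and TrkB, the product of *Ntrk2*, is the receptor for brain-derived neurotrophic factor and neurotrophin-4; p75 binds every mature and precursor neurotrophin. The cell bodies of the neurons that innervate the penis lie in ganglia outside it, so RNA of a dissociated penis can hold the signals made by the target tissue and by the Schwann cells that wrap the axons, but little RNA of the neurons. GFRα1 can be shed or held on the membrane of cells that lack RET, and *Ntrk2* also encodes truncated receptors without a kinase, which the 3' counts of these libraries cannot tell from the full-length form.

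On GRCm38, the ligand genes lie at 7810846 to 7837575 of chromosome 15 (*Gdnf*, plus strand), 56751325 to 56757530 of chromosome 17 (*Nrtn*, minus strand) and 126101412 to 126166910 of chromosome 6 (*Ntf3*, minus strand). The receptor genes outside the pair whose promoters are shown further on lie at 70890120 to 70979838 of chromosome 14 (*Gfra2*, plus strand), 118151745 to 118197718 of chromosome 6 (*Ret*, minus strand) and 95568818 to 95587735 of chromosome 11 (*Ngfr*, minus strand). No other annotated gene overlaps any of these 6.

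The libraries held between 11343 and 12580 cells each, and the filters on depth, mitochondrial and globin RNA kept 31132 of 47040. They kept 52.2 and 67.8% of the cells in the DTA- samples and 68.4 and 77.7% in the DTA+ samples. Clustering without the 8 genes and without the other pathway genes gave 26 clusters. A single cluster, with *Fabp7* among its leading genes, was named glia-like. Its 270 cells were 50 and 67 in the DTA- samples and 87 and 66 in the DTA+ samples, 0.867% of all kept cells, and all 8 glial markers were detected in it. Another 18 clusters, with 28487 cells, were mesenchymal; 16 of them had at least 20 cells in every sample and were also compared one by one under the names of their 2 leading genes, or of 1 of them. No cluster was neuronal: in the glia-like cells 4 of 8 neuron markers were at 0 and all 8 together summed to between 9.47 and 52.7 CPM (UMIs of a gene in every 1000000 UMIs of that population in that sample), against between 3879 and 4530 CPM for the glial markers. Each pair of libraries shared between 31 and 48 cell barcodes.

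A few other features moved between samples within these populations. Globin and other erythroid markers summed to 17878 and 8543 CPM in glia-like cells of the DTA- samples and to 493 and 196 CPM in those of the DTA+ samples, and in mesenchyme to 2878 and 2024 CPM against 1743 and 721 CPM. Melanocyte markers summed to 3180 CPM in glia-like cells of DTA- replicate 1 and 2428 CPM in DTA+ replicate 2, but to 6.83 and 10.4 CPM in the other two; the 10 cells that carried them held no UMI of any of the 8 genes. Pericyte markers, 2 of 6 of them at 0, summed in glia-like cells to 158 and 372 CPM in DTA- and 62.6 and 63.1 CPM in DTA+. Most of each sum was *Ndufa4l2* alone, at 150 and 324 CPM in DTA- and 41.7 and 47.4 CPM in DTA+. All 6 macrophage and all 6 skeletal muscle markers were at 0 in glia-like cells. Mesenchymal markers summed in glia-like cells to 1647 and 4391 CPM in DTA- and 2941 and 2967 CPM in DTA+. In DTA- replicate 2 this was above the sum of the glial markers, 3879 CPM. The same markers summed in mesenchyme to 10275 and 15466 CPM in DTA- and 13974 and 9958 CPM in DTA+. In mesenchyme the neuron markers, 2 of 8 of them at 0, summed to 13 and 24.5 CPM in DTA- and 45.6 and 41.9 CPM in DTA+, and the smooth muscle markers summed to 239 and 360 CPM in DTA- and 133 and 104 CPM in DTA+, and the *Acta2*/*Actg2* cluster (smooth muscle-like) held 424 and 1085 cells against 168 and 55. The part of these shifts in the results below was not tested, except where a value without the cells concerned is given.

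**Figure D1:**
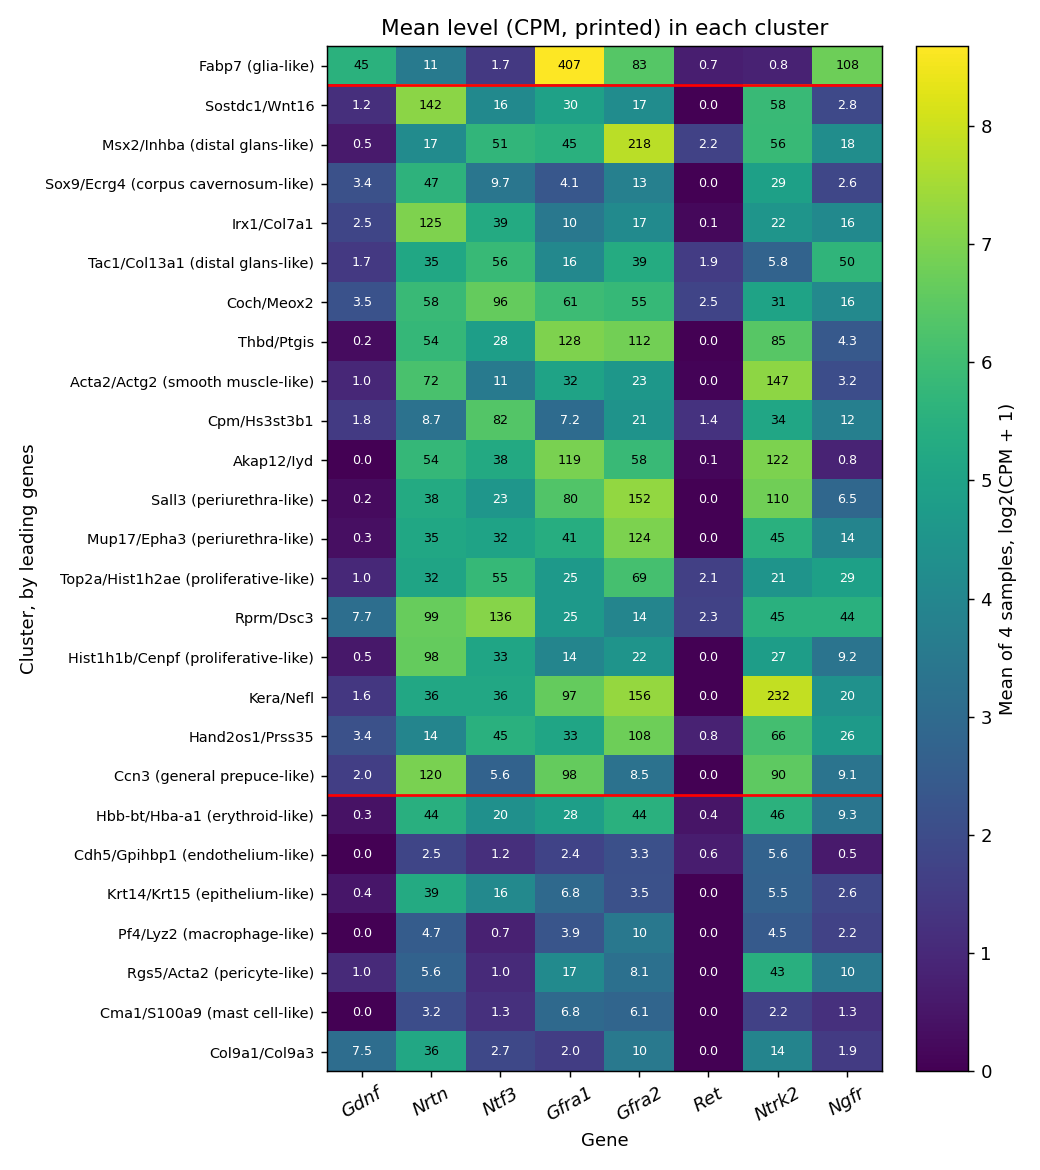
Mean level of each gene over the 4 samples in each of the 26 clusters; columns are genes, rows are clusters named by their leading genes, colour is log2(CPM + 1) and the printed number is the CPM. Red lines separate the glia-like cluster (top) from the mesenchymal clusters and from all other clusters; the glia-like cluster has the highest *Gdnf*, *Gfra1* and *Ngfr* of all, while *Nrtn*, *Ntf3* and *Ntrk2* are highest in mesenchymal clusters. The means of the *Akap12*/*Iyd* and *Ccn3* clusters rest on samples with as few as 14 and 2 cells.

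The 8 genes fell into a glial and a mesenchymal set. *Gdnf*, *Gfra1* and *Ngfr* each ranked first of the 26 clusters in the glia-like cells, at 45.1, 407 and 108 CPM over the 4 samples. *Gfra2* was found in both kinds of cell, and the glia-like cluster ranked 7 of 26 for it. *Nrtn*, *Ntf3* and *Ntrk2* belonged to mesenchyme: the glia-like cluster ranked 21, 22 and 26 for them. *Ret* was close to the floor in every cluster, with 87 UMIs in all kept cells, 84 of them in mesenchyme and 1 in a glia-like cell.

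The ligand *Gdnf* was read in a minority of the glia-like cells. At least 1 UMI of *Gdnf* was found in 15.9% of glia-like cells (43 of 270; 95% Clopper-Pearson interval 11.8 to 20.8%) and in 0.709% of mesenchymal cells (202 of 28487; 0.615 to 0.813%). Macrophages and endothelial cells, which should lack the gene, gave 0 of 293 and 0 of 498, which allow shares of up to 1.02 and 0.602% at 3 counts and up to 1.25 and 0.738% by the upper Clopper-Pearson bound. The share in mesenchyme as a whole lay between these limits, so as a whole it was not separable from background RNA. It was uneven over clusters, with 35 of 1014 cells in *Rprm*/*Dsc3*, most of their UMIs in DTA+ replicate 2. In *Coch*/*Meox2* 27 of 1967 cells had a UMI, and in *Akap12*/*Iyd* 0 of 1289. The median depth per sample ran from 4349 to 5070 UMIs in glia-like cells, from 3502 to 4715 in mesenchymal cells and from 4630.5 to 5284 in macrophages. In mesenchymal cells it was higher in both DTA- samples, at 4715 and 4059.5 UMIs against 3502 and 3528 UMIs in DTA+. Glia-like cells, 0.867% of the kept cells, held 60 of the 275 *Gdnf* UMIs (21.8%). Intervals and limits of this kind cover counting error only.

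The co-receptor *Gfra1* was detected in 70.4% of glia-like cells (190 of 270; 64.5 to 75.8%), in 12% of mesenchymal cells and in 1.37% of macrophages. With every cell thinned to 1000 UMIs the shares, as means of the samples, were 22.7% in DTA- and 32.6% in DTA+ for glia-like cells and 2.58 and 4.91% for mesenchymal cells. In each sample its level in glia-like cells was between 6.66 and 13.3 times that in mesenchyme, and glia-like cells held 9.97% of its UMIs. Among the glia-like cells with a *Gdnf* UMI, 4 of 4, 9 of 10, 20 of 20 and 8 of 9 also had a *Gfra1* UMI in the 4 samples in turn. The ligand and its co-receptor were thus read in the same cells, in which *Ret* was at most a single UMI.

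The neurotrophin receptor *Ngfr*, a marker of immature and non-myelinating Schwann cells, was found in 34.8% of glia-like cells (29.1 to 40.8%), 5.10% of mesenchymal cells and 0.683% of macrophages, and its level was between 5.66 and 11.4 times higher in glia-like cells than in mesenchyme of the same sample. The co-receptor *Gfra2* was found in 29.6% of glia-like cells, 17.3% of mesenchymal cells and 3.41% of macrophages, and its level in glia-like cells was between 1.06 and 1.97 times that in mesenchyme. The remaining genes were rare in glia-like cells. *Nrtn* was found in 4.81% of them (2.59 to 8.09%) against 18.2% of mesenchymal cells and 2.05% of macrophages, so that its share in glia-like cells was not separable from that of macrophages at this depth. Endothelial cells gave a share below that of glia-like cells, 0.803% (0.219 to 2.04%), but at lower median depths of 2517 to 4265 UMIs. *Ntf3* and *Ntrk2* were each found in 1 of 270 glia-like cells, against 13 and 16.4% of mesenchymal cells.

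**Figure D2:**
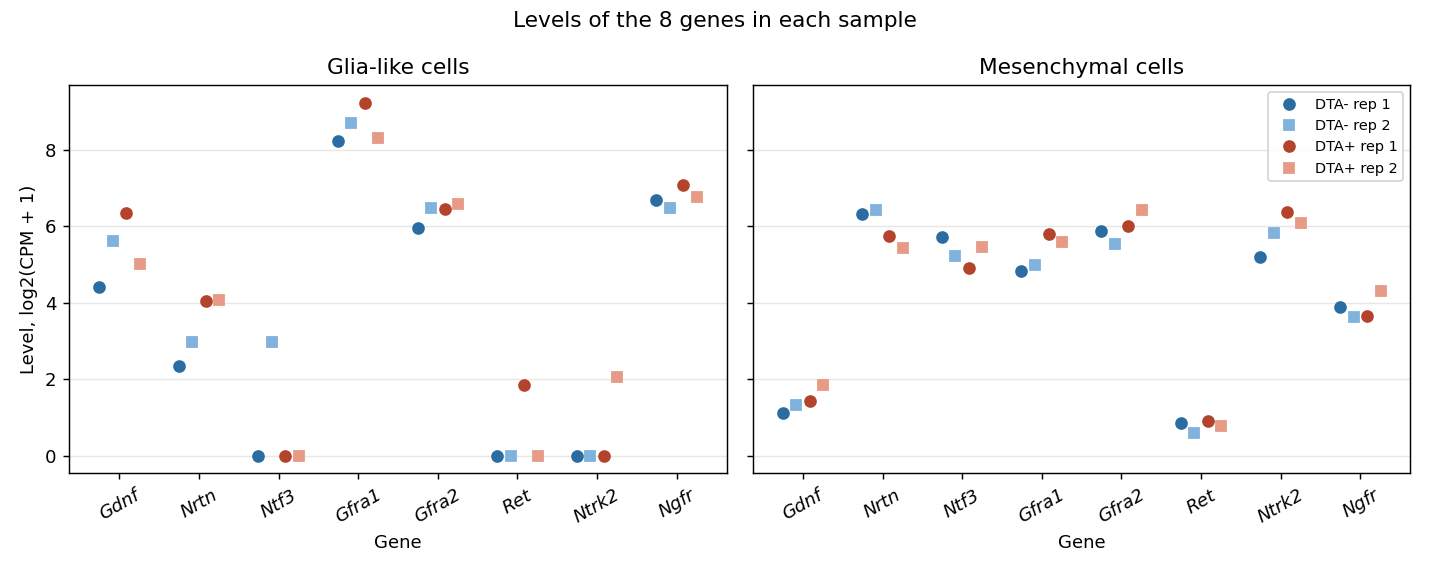
Level of each gene in each of the 4 samples, as log2(CPM + 1), in glia-like cells (left) and in all mesenchymal cells (right); blue points are DTA- samples, red points DTA+ samples, circles replicate 1 and squares replicate 2. In mesenchyme *Gfra1*, *Gfra2*, *Ntrk2* and *Gdnf* are higher in both DTA+ samples and *Nrtn* lower; in glia-like cells the *Gfra1*, *Gfra2* and *Gdnf* samples of the genotypes overlap.

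In the glia-like cells the samples of the genotypes overlapped for most of these genes. *Gfra1* stood at 300 and 413 CPM in the DTA- samples and at 600 and 316 CPM in the DTA+ samples. The highest value of the 4 was DTA+ replicate 1 and the genotypes overlapped, with a fitted log2 fold change (DTA+ over DTA-) of 0.32 (SE 0.287). Without DTA+ replicate 1 the sign turned, and the value was -0.20. *Gdnf* gave 20.3 and 47.8 CPM against 80.8 and 31.6 CPM, that is 5, 14, 31 and 10 UMIs, and the samples again overlapped. For *Gfra2*, levels were 60.8 and 88.8 CPM in DTA- and 86 and 94.7 CPM in DTA+. Only *Ngfr* of the 4 genes that passed the filter on low counts did not overlap, with 101 and 88.8 CPM in DTA- and 133 and 107 CPM in DTA+ (log2 fold change 0.31, SE 0.261). *Nrtn*, below the filter, was read as 1 and 2 UMIs in DTA- and 6 and 5 UMIs in DTA+.

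Among all 4766 genes that passed the filter in glia-like cells, 19.7% did not overlap with DTA+ higher and 15% with DTA+ lower, and 0.105% were called (adjusted p under 0.05 in edgeR's quasi-likelihood test), all of them lower in DTA+ and 0% higher. The 5 called genes, named after their values were seen, were the globin genes *Hbb-bs*, *Hbb-bt*, *Hba-a1* and *Hba-a2* and the pericyte marker *Ndufa4l2*. The last is also a leading gene of the mesenchymal *Thbd*/*Ptgis* cluster. Without the cells that carried melanocyte markers *Gfra1* was at 325 and 413 CPM in DTA- and 600 and 342 CPM in DTA+, so the overlap remained.

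In mesenchyme taken as a whole, the differences ran in both directions. The co-receptor *Gfra1* was at 27.3 and 31.0 CPM in DTA- and at 54.7 and 47.4 CPM in DTA+, a log2 fold change of 0.74 (SE 0.138); a signed number in brackets after 2 pairs of levels is this fitted log2 fold change throughout. The co-receptor *Gfra2* was at 57.3 and 45.0 CPM against 63.0 and 84.5 CPM (0.45). The kinase gene *Ntrk2* was at 35.7 and 55.8 CPM against 81.1 and 67.4 CPM (0.63). In all 3 both DTA+ samples were above both DTA- samples.

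The ligand *Nrtn* went the other way, at 78.4 and 85.6 CPM in DTA- and 52.1 and 42.5 CPM in DTA+ (log2 fold change -0.86, SE 0.144). *Gdnf* was at 1.17 and 1.52 CPM against 1.71 and 2.63 CPM, in cells whose share over all mesenchyme was not separable from background RNA. Samples of the genotypes overlapped for the remaining 3. *Ntf3* gave 52.1 and 36.6 CPM against 29.1 and 43.0 CPM, *Ngfr* gave 13.7 and 11.4 CPM against 11.6 and 19.0 CPM, and *Ret* stayed under 1 CPM in every sample.

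All 8 genes passed the filter in mesenchyme. Over the 15254 genes of this fit 33.3% did not overlap with DTA+ higher and 18.1% with DTA+ lower, and 196 were called (1.28%; 0.649% higher and 0.636% lower in DTA+). Since the 8 genes were picked from this contrast, nothing is read from how many of them did not overlap. In bulk sums such as these, a change in the number of cells of a type and a change in the RNA per cell cannot be told apart. In 2 of the 18 clusters the 10 leading genes held more markers of another class than mesenchymal ones, 4 of smooth muscle against 3 in the *Acta2*/*Actg2* cluster and 1 of pericytes against 0 in the *Thbd*/*Ptgis* cluster. Without these clusters *Gfra1* was at 20.1 and 21.3 CPM in DTA- and 50.4 and 41.9 CPM in DTA+ (log2 fold change 1.09), *Ntrk2* at 28.7 and 39.7 CPM against 74.8 and 64.8 CPM (0.96), and *Nrtn* at 77.7 and 86.4 CPM against 52.5 and 41.6 CPM (-0.87). The *Gdnf* samples then overlapped. With the 16 larger clusters weighted equally, *Gfra1* was at 26.6 and 30.1 CPM in DTA- and 59.0 and 46.5 CPM in DTA+, *Ntrk2* at 39.6 and 52.9 CPM against 81.9 and 79.3 CPM, and *Nrtn* at 71.1 and 64.5 CPM against 49.3 and 43.0 CPM.

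**Figure D3:**
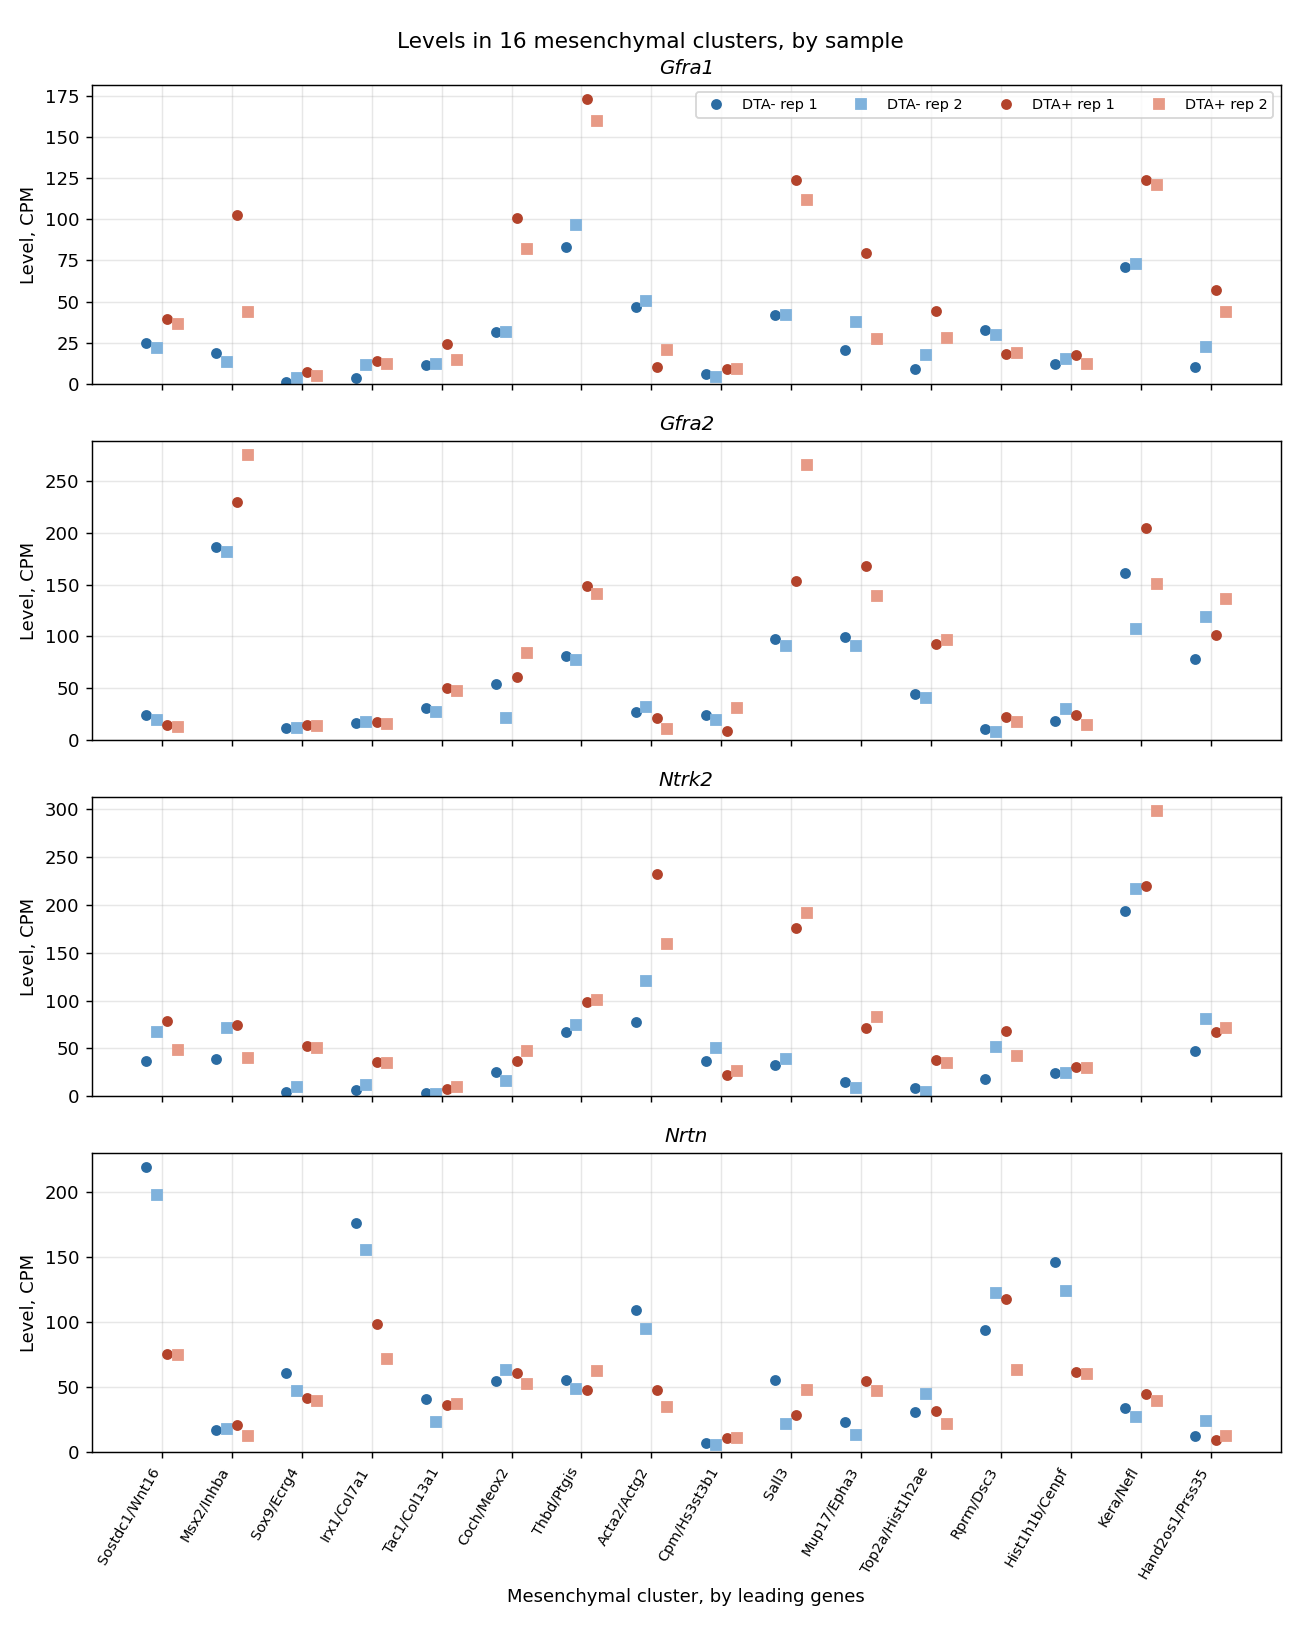
Levels of *Gfra1*, *Gfra2*, *Ntrk2* and *Nrtn* in CPM (vertical axes, from 0) in each sample of the 16 mesenchymal clusters with at least 20 cells in every sample; blue points are DTA- samples, red points DTA+ samples. The red points of *Ntrk2* lie above the blue ones in 11 clusters and those of *Gfra1* in 12, while the red points of *Nrtn* lie far below in the *Sostdc1*/*Wnt16* cluster, where DTA- samples are at 219 and 198 CPM. Of all gene and cluster pairs, 25% were higher without overlap.

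Within a cluster the cells of the genotypes can still differ in kind. At a finer resolution (1.2 in place of 0.8) the genotypes had different most common finer clusters in 3 of the 16 fitted clusters. In the *Thbd*/*Ptgis* cluster a finer cluster of the same name held a mean of 89.5% of DTA- cells, and a *Stc1*/*Dcc* cluster 96.9% of DTA+ cells. In the *Sostdc1*/*Wnt16* cluster 89.8% of DTA- cells fell in a *Sostdc1*/*Nts* cluster and 60.6% of DTA+ cells in a *Gria2*/*Iyd* cluster, and in the *Cpm*/*Hs3st3b1* cluster 61.2% of DTA- cells fell in a *Dlx6os1*/*Runx2* cluster and 74.2% of DTA+ cells in a *Hs3st3b1*/*Cpm* cluster. The overlap of the genotypes, summing the smaller mean share of each finer cluster, was 10.6% in *Thbd*/*Ptgis*, 49.3% in *Sostdc1*/*Wnt16* and 63.8% in *Cpm*/*Hs3st3b1*. Values in these 3 clusters therefore compare cells that sit partly in different finer clusters in each genotype, and largely so in *Thbd*/*Ptgis*. Smaller shifts were seen in other clusters, with an overlap of 81.3% in *Tac1*/*Col13a1*, 82.2% in *Acta2*/*Actg2*, 86.7% in *Msx2*/*Inhba* and 88% in *Irx1*/*Col7a1*. *Pclaf*/*Gmnn* cells were 28.3 and 24.8% of *Tac1*/*Col13a1* in DTA- and 7.54 and 9.20% in DTA+. *Gria2*/*Iyd* cells were 0.935 and 0.308% of *Irx1*/*Col7a1* in DTA- and 7.72 and 17.2% in DTA+. Levels given below inside a finer cluster take in all its cells, also those from other main clusters.

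The differences of *Gfra1* were spread over the clusters. *Gfra1* passed the filter in all 16 fitted clusters. Both DTA+ samples were higher in 12 of them and lower in 2. Over all gene and cluster pairs 25% did not overlap with DTA+ higher and 20% with DTA+ lower. The largest fitted difference was in the *Msx2*/*Inhba* cluster (distal glans-like), with 19.0 and 13.6 CPM in DTA- and 103 and 43.6 CPM in DTA+ (log2 fold change 2.04, SE 0.374). The 2 DTA+ samples themselves differed there by more than the DTA- level.

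In the *Coch*/*Meox2* cluster *Gfra1* was at 31.5 and 31.3 CPM against 101 and 81.7 CPM (1.51). In the *Sall3* cluster (periurethra-like) it was at 41.7 and 41.9 CPM against 124 and 112 CPM (1.46). The *Thbd*/*Ptgis* cluster, which had the highest *Gfra1* of the fitted mesenchymal clusters, gave 82.9 and 96.8 CPM against 173 and 159 CPM (0.84). Inside the *Stc1*/*Dcc* cluster it was at 60.4 and 50.5 CPM, from 12 and 3 UMIs, against 172 and 144 CPM. In the *Coch*/*Meox2*, *Sall3* and *Thbd*/*Ptgis* clusters the gap between genotypes was wider than the gap between replicates. The direction was opposite in the *Acta2*/*Actg2* cluster, at 46.9 and 50.3 CPM against 10.3 and 20.7 CPM (-1.83), where the DTA+ values rest on 9 and 6 UMIs, and in the *Rprm*/*Dsc3* cluster, at 32.7 and 29.9 CPM against 18.0 and 18.8 CPM (-0.77).

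The kinase gene *Ntrk2* did not overlap in 12 of 16 clusters, higher in 11 and lower in 1, against 25 and 20% of all pairs. In the *Sox9*/*Ecrg4* cluster (corpus cavernosum-like) it was at 4.10 and 9.22 CPM in DTA- and at 52.9 and 50.7 CPM in DTA+ (log2 fold change 2.85, SE 0.293). The *Mup17*/*Epha3* cluster (periurethra-like) gave 14.8 and 8.93 CPM against 71.3 and 83.1 CPM (2.63), and the other periurethra-like cluster, *Sall3*, gave 32.7 and 38.9 CPM against 176 and 192 CPM (2.33).

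The dividing cells of the *Top2a*/*Hist1h2ae* cluster had 8.58 and 4.14 CPM of *Ntrk2* in DTA- and 38.1 and 34.7 CPM in DTA+ (2.48). In the *Kera*/*Nefl* cluster, which had the highest level of *Ntrk2* of all clusters, the samples lay close together, at 194 and 217 CPM against 220 and 298 CPM (0.32). The *Cpm*/*Hs3st3b1* cluster alone had it lower in both DTA+ samples, at 36.9 and 50.2 CPM against 22.5 and 26.3 CPM (-0.73). Inside its finer clusters the samples overlapped, at 58.4 and 61.8 CPM against 75.4 and 54.2 CPM in *Dlx6os1*/*Runx2* cells and at 12.1 and 15.3 CPM against 11.4 and 12.4 CPM in *Hs3st3b1*/*Cpm* cells. The *Acta2*/*Actg2* cluster, in which *Gfra1* was lower, had *Ntrk2* higher, at 77.6 and 120 CPM against 233 and 159 CPM (1.06).

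*Gfra2* was higher in both DTA+ samples in 9 of 16 clusters and lower in 2, against 25 and 20% of all pairs. In the *Sall3* cluster it was at 97.4 and 90.5 CPM against 154 and 265 CPM (1.12), in the *Top2a*/*Hist1h2ae* cluster at 44.6 and 40.9 CPM against 93.0 and 96.4 CPM (1.10), and in the *Thbd*/*Ptgis* cluster at 81.1 and 77.4 CPM against 148 and 141 CPM (0.82). Inside the *Stc1*/*Dcc* cluster it was at 101 and 118 CPM, from 20 and 7 UMIs, against 153 and 139 CPM, whereas the *Ntrk2* samples overlapped there. Its highest level was in the *Msx2*/*Inhba* cluster, at 186 and 181 CPM against 229 and 275 CPM (0.43). *Gfra1*, *Gfra2* and *Ntrk2* were higher together, without overlap, in 6 clusters (*Coch*/*Meox2*, *Sall3*, *Sox9*/*Ecrg4*, *Tac1*/*Col13a1*, *Thbd*/*Ptgis* and *Top2a*/*Hist1h2ae*), and *Gfra1* and *Ntrk2* in 8, of the 12 and 11 in which each was higher. Genes that are each higher in so many of the 16 clusters would share clusters even without any link between them. Counts such as these were not tested against chance, and no share over all genes was computed to set beside them. All clusters of a sample come from the same library, so the clusters are not independent replicates of the genotype.

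*Gfra1* and *Ntrk2* were higher in more clusters than the other genes, so the sequences around their transcription starts are shown, from 250 bases before the RefSeq start to 50 after it, read 5′ to 3′ on the strand of each gene (GRCm38.p6). Matches to the E-box letters CANNTG are in capitals; 72.3% of 32851 promoters of this length hold at least 1.
Gfra1 (chr19:58455349-58455648, minus strand): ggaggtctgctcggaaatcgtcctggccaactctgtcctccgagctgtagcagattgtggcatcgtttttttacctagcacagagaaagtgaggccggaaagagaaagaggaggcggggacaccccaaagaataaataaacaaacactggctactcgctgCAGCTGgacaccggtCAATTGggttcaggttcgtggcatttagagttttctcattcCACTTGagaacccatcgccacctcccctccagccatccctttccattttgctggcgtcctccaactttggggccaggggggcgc
Ntrk2 (chr13:58806319-58806618, plus strand): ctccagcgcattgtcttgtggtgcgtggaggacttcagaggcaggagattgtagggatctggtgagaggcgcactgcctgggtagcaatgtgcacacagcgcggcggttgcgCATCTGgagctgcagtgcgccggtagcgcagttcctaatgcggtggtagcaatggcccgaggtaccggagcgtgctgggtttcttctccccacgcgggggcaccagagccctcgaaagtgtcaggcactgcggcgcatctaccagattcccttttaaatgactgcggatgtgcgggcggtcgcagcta
The *Gfra1* window has 3 such matches and the *Ntrk2* window 1. Neither window has a match on either strand to AGAACA, the hexamer that receptors of the androgen and glucocorticoid family read (19% of promoters). Neither has one to the ETS letters CCGGAAGT (3.89%) or to GGAAGT within them (23.8%). Shorter ETS letters were not searched. These matches describe the letters of the 2 windows and nothing about which factors bind. *Gfra1* spans 58235604 to 58455909 of chromosome 19 on the minus strand, where the non-coding gene *Gm16277* overlaps it on the other strand; this GENCODE span begins farther upstream than the RefSeq start, so the *Gfra1* window lies inside it. *Ntrk2* spans 58806569 to 59133970 of chromosome 13 on the plus strand, where 4 non-coding genes overlap it, 1 of them on the same strand (GRCm38).

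**Figure D4:**
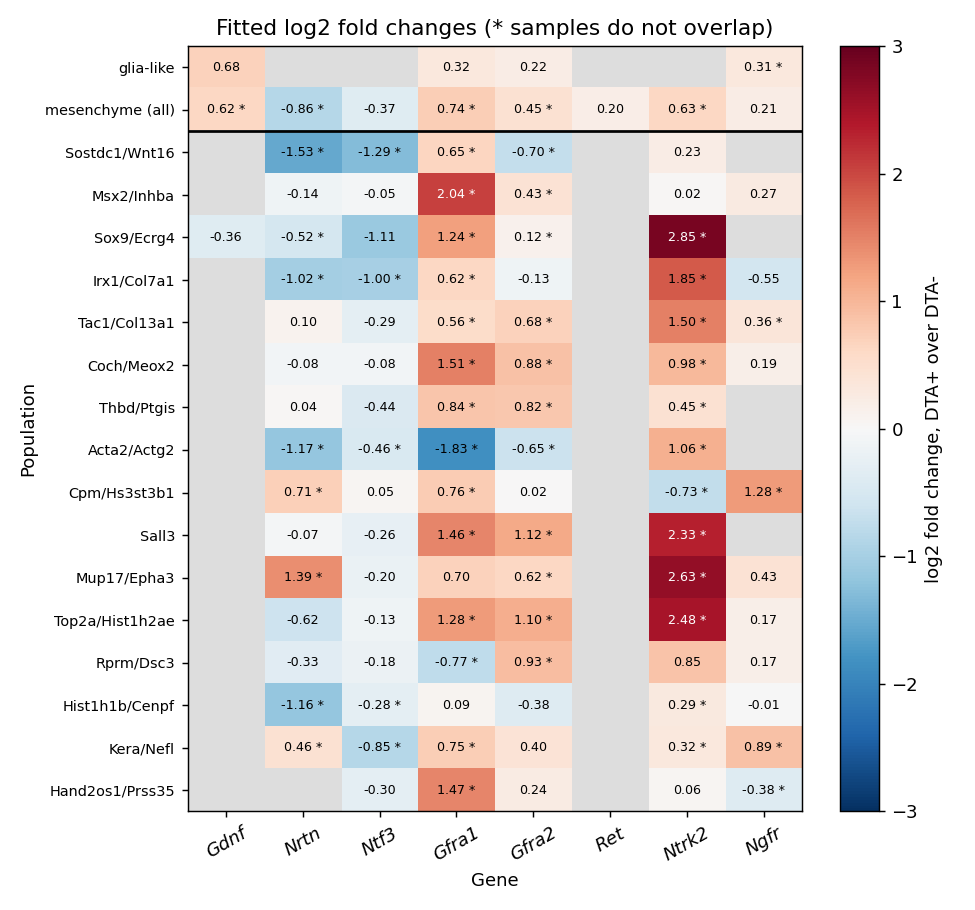
Fitted log2 fold change of each gene, DTA+ over DTA- (colour and printed number), in glia-like cells, in all mesenchymal cells and in the 16 mesenchymal clusters; an asterisk marks values whose samples do not overlap between genotypes, and grey marks genes that did not pass the filter on low counts. *Gfra1*, *Gfra2* and *Ntrk2* are mostly red, up to 2.85 for *Ntrk2* in the *Sox9*/*Ecrg4* cluster, and *Ntf3* ranges from -1.29 to 0.05.

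The ligand *Nrtn* passed the filter in 15 clusters. It was lower in both DTA+ samples in 5 and higher in 3, against 20 and 25% of all gene and cluster pairs. Its highest mean was in the *Sostdc1*/*Wnt16* cluster, where it was at 219 and 198 CPM in DTA- and at 75.5 and 74.4 CPM in DTA+ (log2 fold change -1.53, SE 0.169) and 2.78-fold lower in mean CPM. In all *Sostdc1*/*Nts* cells it was at 220 and 194 CPM against 110 and 92.1 CPM. In all *Gria2*/*Iyd* cells it was at 216 and 249 CPM against 38.1 and 43.9 CPM, also lower in both DTA+ samples. Of the 1021 and 728 *Gria2*/*Iyd* cells in DTA+, 442 and 398 were of the *Sostdc1*/*Wnt16* cluster, and in DTA- 82 of 90 and 53 of 67. The *Gria2*/*Iyd* values are therefore not a comparison within that cluster. The *Hist1h1b*/*Cenpf* cluster of dividing cells gave 146 and 124 CPM against 61.8 and 60.4 CPM (-1.16). The *Irx1*/*Col7a1* cluster, with a larger share of *Gria2*/*Iyd* cells in DTA+, gave 176 and 155 CPM against 98.7 and 71.4 CPM (-1.02). In the *Acta2*/*Actg2* cluster it was at 110 and 94.9 CPM against 47.9 and 34.5 CPM (-1.17), the last from 10 UMIs. The *Mup17*/*Epha3* cluster went against this, with *Nrtn* at 22.9 and 13.4 CPM against 54.6 and 47.3 CPM (1.39). In the *Coch*/*Meox2* and *Thbd*/*Ptgis* clusters, where *Gfra1* was higher, the *Nrtn* samples overlapped (-0.08 and 0.04).

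*Ntf3*, whose protein supports proprioceptive and sympathetic neurons, was not higher without overlap in any of the 16 clusters. It was lower in 5, against 20% of all gene and cluster pairs. It was lower together with *Nrtn* in the *Sostdc1*/*Wnt16*, *Irx1*/*Col7a1*, *Hist1h1b*/*Cenpf* and *Acta2*/*Actg2* clusters. The *Sostdc1*/*Wnt16* values were 21.9 and 24.3 CPM in DTA- and 8.54 and 10.9 CPM in DTA+ (-1.29). Inside the *Sostdc1*/*Nts* cells the gap was narrower, at 24.6 and 25.4 CPM against 17.2 and 20.9 CPM. In the *Gria2*/*Iyd* cells of all main clusters the samples overlapped, with 3 and 0 UMIs in DTA-. The *Kera*/*Nefl* cluster gave 47.8 and 43.8 CPM against 29.6 and 21.6 CPM (-0.85). Where *Ntf3* was highest, in the *Rprm*/*Dsc3* cluster, the samples overlapped, at 164 and 122 CPM against 120 and 136 CPM. The *Akap12*/*Iyd* cluster (1289 cells) had 72.9 and 73.0 CPM of *Ntf3* in DTA- and 2.95 and 2.12 CPM in DTA+, but held 24 and 14 cells in the DTA- samples, whose values rest on 8 and 3 UMIs, so it was not fitted.

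*Ngfr* passed the filter in 11 clusters and did not overlap in 4. It was higher in 3 and lower in 1, against 25 and 20% of all gene and cluster pairs. Outside glia-like cells it was highest in the *Tac1*/*Col13a1* cluster (distal glans-like), at 47.7 and 37.9 CPM in DTA- and 52.0 and 61.0 CPM in DTA+ (0.36). The widest difference was in the *Cpm*/*Hs3st3b1* cluster, at 6.76 and 8.14 CPM against 17.8 and 17.2 CPM (1.28). Inside the *Hs3st3b1*/*Cpm* cells it was at 9.43 and 5.09 CPM, from 7 and 1 UMIs, against 20.6 and 20.4 CPM, and in the *Dlx6os1*/*Runx2* cells the samples overlapped. *Gdnf* passed the filter in the *Sox9*/*Ecrg4* cluster alone, where the samples overlapped, and its highest mean in mesenchyme was 7.73 CPM in the *Rprm*/*Dsc3* cluster, read from 7 and 0 UMIs in DTA- and 4 and 26 UMIs in DTA+. *Ret* passed in none, and its highest mean was 2.46 CPM in the *Coch*/*Meox2* cluster.

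The genes whose levels followed each member most closely over the 26 clusters were picked by Pearson's r of the mean log2(CPM + 10), with no test, since the clusters share libraries and depth. For *Gdnf* they were *Gfra3* (r = 0.93), *Tyr* and *Col20a1*, and for *Gfra1* they were *Adgrg6* (0.79), *Syt11* and *Mgat3*. For *Ngfr* they were *Cdk5r1* (0.82), *Opcml* and *Myo5b*, and for *Gfra2* they were *Gas2* (0.80), *Epha5* and *Prss12*. For *Nrtn* they were *Hlf* (0.82), *Robo2* and *Hoxc8*, for *Ntf3* they were *Kat6b* (0.86), *Tbx3* and *Crabp2*, and for *Ntrk2* they were *Abi3bp* (0.88), *Serping1* and *Fam114a1*. *Tyr* is a melanocyte gene, and melanocyte markers were read in the glia-like cluster of 2 libraries, as given above.

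Partners of the 8 genes were looked at whatever their result. *Gfra3*, the co-receptor of artemin, was glial too, with 296 and 263 CPM in DTA- and 284 and 246 CPM in DTA+ in glia-like cells and between 0.248 and 1.48 CPM in mesenchyme. Its ligand gene *Artn* was also read in glia-like cells, at 24.3 and 3.41 CPM against 15.6 and 18.9 CPM. *Sort1*, whose product pairs with p75, was at 73.0 and 88.8 CPM against 70.4 and 88.4 CPM in glia-like cells and at between 9.90 and 13.4 CPM in mesenchyme.

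The neurotrophin receptor gene *Ntrk3*, the receptor of neurotrophin-3, was at 43.1 and 72.4 CPM in DTA- and 67.7 and 49.5 CPM in DTA+ in mesenchyme. Glia-like cells had less of it in each sample, at 4.06 and 27.3 CPM against 10.4 and 22.1 CPM. *Bdnf*, the ligand of TrkB, was at 11.6 and 14.1 CPM against 19.1 and 16.2 CPM in mesenchyme (log2 fold change 0.39, edgeR adjusted p = 0.298). In glia-like cells it was at 0 and 6.83 CPM against 15.6 and 9.47 CPM, from 11 UMIs, so it was not set apart as mesenchymal. *Gfra4* was at 17.1 and 13 CPM against 12.7 and 13.5 CPM in mesenchyme, with 1 UMI in glia-like cells. The neurotrophin-4 gene *Ntf5* had 138 UMIs in mesenchyme and *Pspn* 1. Neither of them had a UMI in glia-like cells, which allows up to 2.42 CPM over all samples.

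Of 55 other genes of the GDNF, neurotrophin and neuropoietic cytokine pathways and of the feedback circuit of receptor tyrosine kinases, 18 passed the filter in glia-like cells, and edgeR's quasi-likelihood test called none of them, with none at an unadjusted p under 0.05. Their median log2 fold change was -0.09, against -0.01 over all genes tested. In mesenchyme 50 were tested, 9 were at an unadjusted p under 0.05, and 1 was called, *Sorcs3*, a gene of the sortilin family that was named after its values were seen. It was at 0.852 and 0.674 CPM in DTA- and 3.49 and 3.23 CPM in DTA+ (log2 fold change 2.06, SE 0.272, edgeR adjusted p = 0.0279). The median of the 50 was 0.05. No list gene differed in its genotype change between glia-like cells and mesenchyme by the edgeR interaction test (0 of the list genes, 4 at an unadjusted p under 0.05; 0.208% of all genes); the smallest edgeR adjusted p was that of *Dusp6*, 0.254, and it was named after its values were seen.

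In the single mesenchymal clusters 42 of 535 list gene and cluster pairs were called (7.85%), 33 higher and 9 lower in DTA+, against 3.83% of all pairs (1.87% higher and 1.96% lower). Since the lists were chosen with earlier results of these data known, these shares are set side by side as a description only. DESeq2 called 9 of the pairs, cells thinned to 1000 UMIs left 8, and without DTA+ replicate 2 there were 24. By list, 6 of 75 pairs were called in the GDNF family list (8%), all of *Ncam1* and *Dok6*, 2 of its 9 tested genes. *Gfra4*, tested in 12 clusters, and *Gfra3* and *Artn*, tested in 1 each, had no call. In the neurotrophin list 13 of 238 pairs were called (5.46%), from 10 of its 19 tested genes, 3 higher and 1 lower of *Sorcs1*. Calls were 5 of 90 pairs of neuropoietic cytokine genes (5.56%) and 18 of 132 of the feedback and target genes of receptor tyrosine kinases (13.6%). In the last list 17 of the calls were higher in DTA+, its median log2 fold change over pairs was 0.30, and the calls came from 8 of its 11 genes.

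**Figure D5:**
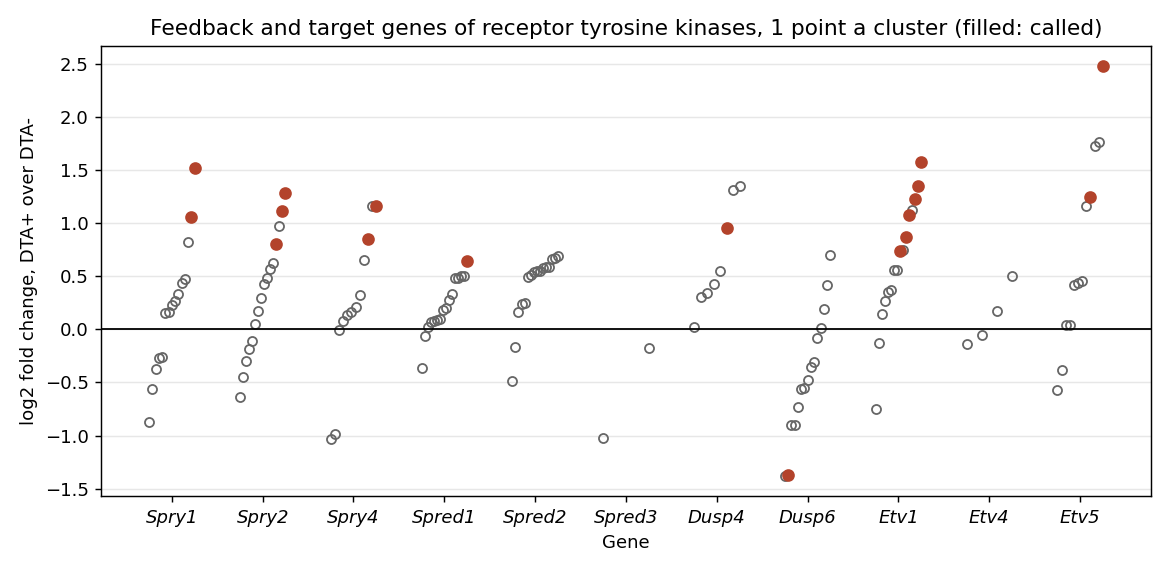
Log2 fold change, DTA+ over DTA- (vertical axis), of the 11 feedback and target genes of receptor tyrosine kinases (horizontal axis) in the mesenchymal clusters in which each passed the filter, 1 point a cluster, sorted within a gene; filled red points were called by edgeR's quasi-likelihood test. *Etv1* has 6 filled points, all above 0, and *Dusp6* the only filled point below 0.

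*Etv1* and *Etv5* encode ETS factors that are switched on downstream of receptor kinases. *Etv1* was called higher in 6 of 16 clusters. The largest difference was in the *Thbd*/*Ptgis* cluster, at 19.5 and 19.4 CPM in DTA- and 55.2 and 64.3 CPM in DTA+ (log2 fold change 1.58, SE 0.229, edgeR adjusted p = 1.4e-04). There the genotypes sat largely in different finer clusters, and levels of *Etv1* inside these were not computed. *Etv5* rose in 2 clusters, and in the *Sox9*/*Ecrg4* cluster it went from 4.10 and 3.77 CPM to 20.1 and 27.5 CPM (2.48, SE 0.337, edgeR adjusted p = 6.9e-04). The Sprouty and Spred genes encode inhibitors of the Ras to ERK pathway that the pathway itself induces. In the *Tac1*/*Col13a1* cluster, with a smaller share of *Pclaf*/*Gmnn* cells in DTA+, 6 of the 10 tested genes of this list rose, where 4.17% of all genes were called higher. *Spry2* went from 23.4 and 13.7 CPM to 35.6 and 57.4 CPM (1.29, edgeR adjusted p = 0.0012) and *Spred1* from 84.2 and 115 CPM to 164 and 154 CPM (0.65, edgeR adjusted p = 0.0085). *Spry1* was called there too, with 49.2 and 25 CPM against 45.3 and 110 CPM, although its samples overlapped. In the *Cpm*/*Hs3st3b1* cluster, whose genotypes differed in their most common finer cluster, 4 of 9 rose, where 1.99% of all genes were called higher. Among them was *Spry4*, from 20.3 and 14.9 CPM to 45.9 and 37.5 CPM (1.17, edgeR adjusted p = 0.0266). *Dusp6*, which encodes an ERK phosphatase, fell in the *Mup17*/*Epha3* cluster and was named for being the only call of the list in that direction, after its values were seen, at 29.7 and 33.0 CPM against 12.6 and 12.1 CPM (edgeR adjusted p = 0.0161).

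In the *Thbd*/*Ptgis* cluster, which had the highest *Gfra1* of the fitted mesenchymal clusters and whose genotypes sat in different finer clusters, 5 list genes of 37 were called higher and 1 lower, where 11.6% of all genes were called. *Sorcs1*, of the sortilin family, rose from 7.38 and 4.43 CPM to 46.9 and 30.2 CPM (log2 fold change 2.59, SE 0.339, edgeR adjusted p = 4.9e-05). *Dok6*, an adaptor of RET, rose from 1.30 and 1.66 CPM to 13.2 and 9.84 CPM (2.85, edgeR adjusted p = 0.0022), and *Lifr*, the receptor of leukemia inhibitory factor, fell from 38.2 and 57.0 CPM to 11.5 and 11.8 CPM (-2.05, edgeR adjusted p = 1.1e-04). *Ncam1*, a cell adhesion gene whose product also binds GDNF, rose there from 52.1 and 55.9 CPM to 110 and 93.1 CPM (0.87, edgeR adjusted p = 0.0042); over all clusters it rose in 3 and fell in 2. *Sorcs1* also rose in the *Sox9*/*Ecrg4* and *Coch*/*Meox2* clusters and fell in the *Acta2*/*Actg2* cluster (-1.59, edgeR adjusted p = 0.022), the same cluster in which *Sorcs2* rose from 25.7 and 21.9 CPM to 66.2 and 55.2 CPM (1.46, edgeR adjusted p = 0.0037).

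A ligand and a receptor of the neurotrophins were called in single clusters. *Ntrk3* rose in the *Coch*/*Meox2* cluster from 32.8 and 33.8 CPM to 63.5 and 59.9 CPM (0.86, edgeR adjusted p = 0.0116). *Bdnf*, the ligand of TrkB, fell in the *Mup17*/*Epha3* cluster from 19.6 and 24.1 CPM to 8.39 and 7.5 CPM (-1.50, edgeR adjusted p = 0.0335). *Ntrk2* was at 14.8 and 8.93 CPM in DTA- and 71.3 and 83.1 CPM in DTA+ in sums of the same cluster. Whether single cells held both was not examined.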

How the data were processed

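Per the labels and the methods, single cells of male E16.5 genitalia were captured with 10x Genomics 3' chemistry, and the deposited files hold UMI counts per gene and cell that the authors made with Cell Ranger 4.0.0 (the processing notes; the methods name another version) on mm10 with reporter sequences added. Depth was between 50779551 and 73577028 UMIs per library, with a median of 3579 to 4938 UMIs per cell.

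Cells with over 1000 and under 7500 UMIs, at most 25% mitochondrial, 25% *Hba* and 50% *Hbb* UMIs were kept. They were clustered jointly in Seurat 5.3.0 (R 4.3.3) on 2000 variable genes without the 8 genes and the lists, 30 principal components and resolution 0.8. Clusters were named from fixed markers (at least 3 in 5% of cells); those naming limits were chosen with the data in view. Scrublet (scanpy 1.11.5) made 0 automatic doublet calls, a caller that had not worked, so no doublet was removed in the values reported. The UMIs of all cells of a population were added up in each sample, and these sums went into edgeR 4.0.16 with TMM scaling, its filterByExpr filter and its quasi-likelihood test, with Benjamini-Hochberg adjustment over all genes tested (threshold 0.05); log2 fold changes and SEs come from that fit and CPM are plain. An exact permutation test of 2 against 2 samples cannot go below p = 0.333, so none was run. The scripts were tested on simulated counts.

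The 8 genes and the lists were chosen with earlier results of these data known. Named from the lists were the 12 genes with the smallest adjusted p and 10 fixed ligands and receptors. Some of these genes, and 1 leading gene of some clusters, are not reported here. RefSeq promoters matched 6 of the 8 genes. Alternatives were DESeq2 1.42.0, other edgeR tests and normalization, other filters, resolutions and thinned cells (scuttle 1.12.0), a replicate block and leaving out each sample.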

Additional observations from a re-analysis of the deposited data

How the results depend on the processing

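In mesenchyme 196 genes were called as reported, 628 by DESeq2, 943 by edgeR's likelihood ratio test, 1416 with no filter on low counts, 533 with a replicate block, 1815 with crossed replicate numbers as the block, 414 without the smooth muscle-like cluster, 394 also without the *Thbd*/*Ptgis* cluster, and between 424 and 1204 with a sample left out, the most without DTA- replicate 2. For the list genes in mesenchyme the count of 1 became 2, 3, 5, 1 and 7 under the first 5 of these, 0 with cells thinned to 1000 UMIs and between 1 and 4 with a sample left out. In glia-like cells 5 genes were called as reported, 11 with no filter, 0 with cells gated on markers in place of the cluster, and between 1 (without DTA+ replicate 2) and 34 (without DTA- replicate 2) with a sample left out; list genes called there stayed at 0 in every alternative run, as did the list genes in the interaction test. The 42 pairs of list gene and cluster became 9 by DESeq2, 8 with thinned cells, 64 with crossed numbers and between 24 and 42 with a sample left out. The causes of these shifts were not tested.

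Same-numbered samples were not alike: deviations of same-numbered samples from their group means correlated at -0.22 in glia-like cells and -0.26 in mesenchyme. With 2 samples a genotype, crossed numbers give the same values with a positive sign. What the crossed samples may share was not tested. Under the replicate block the counts of called list genes were 1 in mesenchyme, 0 in glia-like cells and 42 pairs, as reported. The count of all genes called in mesenchyme rose under both blocks, as given above. The crossed block, the marker sets left out, the equal weights and the levels inside finer clusters were chosen after seeing the data. Over 18 alternatives in mesenchyme the fitted log2 values of *Gfra1* lay between 0.62 and 1.09, with 0.23 and 0.64 for *Gfra2*, 0.34 and 0.98 for *Ntrk2*, -1.03 and -0.72 for *Nrtn*, and -0.67 and -0.09 for *Ntf3*; that of *Ngfr* ran from -0.18 to 0.55 and changed sign in 1. In glia-like cells it ran from -0.20 to 0.71 for *Gfra1*, -0.16 to 1.47 for *Gdnf* and -0.09 to 0.54 for *Gfra2*, with a changed sign in 1, 1 and 2 alternatives. The 2 samples a genotype, the 50 to 87 glia-like cells a sample and the 87 UMIs of *Ret* limit the precision, and doublets were not removed in the values reported.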
